A study of Mus musculus with 31 samples.

Results

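The masseter muscle (MM), a jaw-closing muscle, was analysed 6 days after an intramuscular injection of 10U of collagenase type 2 (6d post-Col) and compared with MM injected with vehicle. Collagenase cleaves native collagen and so opens the connective tissue around and between muscle fibers. The comparison rested on 6 of the 31 libraries of the series. Of these, 3 came from mice at 6d post-Col and 3 from vehicle-injected mice with the label Contr. All mice were adult male C57BL/6 animals without transgenes, the injected side was the left, and the vehicle was phosphate-buffered saline (PBS). Each library held poly(A) RNA of the whole dissected muscle of 1 mouse, with tendon trimmed away as far as possible. The day on which the vehicle mice were collected is not given in the sources used here. The other 10U groups served to place 6d in time, with 4 mice in an early group (2 days in the labels, 1 day in the study's text) and 4 mice in a late group (12 days in the labels, 14 days in the study's text). The replicates are separate mice, so the spread and the p-values below are those between mice, and a sample of mice this small limits the precision. Because the tissue is bulk muscle, a change in the number of cells of a type and a change in RNA per cell cannot be told apart in any result below.

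Skeletal muscle regenerates from satellite cells, stem cells that lie beside each fiber. After injury they divide, switch on the myogenic regulatory factors in turn, exit the cell cycle, fuse with the help of the membrane proteins myomaker and myomerger, and build new fibers that first use embryonic and neonatal contractile proteins. Fibers that have lost or not yet gained their nerve ending also express the fetal form of the acetylcholine receptor. Monocytes that enter the muscle become macrophages, which clear debris, and fibroblast-like progenitors lay down a provisional matrix rich in fibronectin, tenascin-C and periostin. Oxidative metabolism and the fast adult sarcomere return late in this course.

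The 6d libraries held 18063685 to 21951332 reads on genes, those of vehicle MM 21284802 to 23862787. At these depths 10 counts correspond to 0.419 to 0.554 CPM (the usual depth-scaled count) on plain library totals. The CPM values below have the library size scaled by TMM, the trimmed mean of M-values. On that scale 3 counts correspond to a mean of 0.155 CPM in vehicle mice and 0.119 CPM at 6d. The adult sarcomere genes took 8.30% to 12.3% of the reads at 6d and 13.9% to 18.3% in vehicle MM, so the markers of the labelled tissue were abundant in every library. Several libraries stood apart from their group. Vehicle mice 2 and 3 held 28.6% and 11.5% of their reads on 396 genes that follow salivary gland markers, against 0.242% in vehicle mouse 1 and 0.355% to 0.453% at 6d. Early mice 1, 2 and 4 held 17.2%, 19.5% and 25.2% on these genes, and early mouse 3 held 0.442%. Early mouse 4 and late mouse 4 differed by more than 2-fold from the median of the rest of their group in 20.2% and 15.8% of 14281 genes. This share was 1.0% to 5.8% in the other early and late mice, 1.4% to 2.6% in the 6d mice and 5.5%, 10.4% and 9.3% in vehicle mice 1, 2 and 3. List counts against the early and late groups are therefore also given without early mouse 4 and late mouse 4. Reads that could not be assigned to a single gene (ambiguous) took 0.603% to 0.688% of the uniquely aligned reads at 6d and 0.147% to 0.198% in vehicle MM. The same share was 0.559% to 0.703% in all 11 libraries of 10U and 0.125% to 0.260% in the 20 others, so an effect of how the reads were counted and an effect of 10U cannot be told apart for genes that overlap others.

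At 6d post-Col, 1174 DEGs were up and 1049 were down-regulated among 14281 genes tested, which is 8.22% and 7.35% of them. To be called a DEG a gene needed 3 things, namely an adjusted p below 0.05 (edgeR, quasi-likelihood), more than a 2-fold change, and a mean RPKM (CPM per kilobase of exon) above 1 in either group. The median log2 fold change of all genes was 0.01, and 3900 genes had an adjusted p under 0.05. The split between directions depended on the scaling. With library totals in place of TMM, which moved the median of all genes to 0.54, 2818 DEGs were up and 414 down, so that 87.2% instead of 52.8% of the DEGs were up. The number of DEGs also depended on single mice, since 578 DEGs were up and 341 down without 6d mouse 1, 438 and 301 without 6d mouse 2, and 950 and 672 without 6d mouse 3. Among the genes tested, 294 passed the count filter through the 6d libraries only, 58 of them up-regulated, and 99 passed through the vehicle libraries only, 46 of them down-regulated, and such genes had to differ. They can also not pass when 1 mouse of their group is left out.

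**Figure D1:**
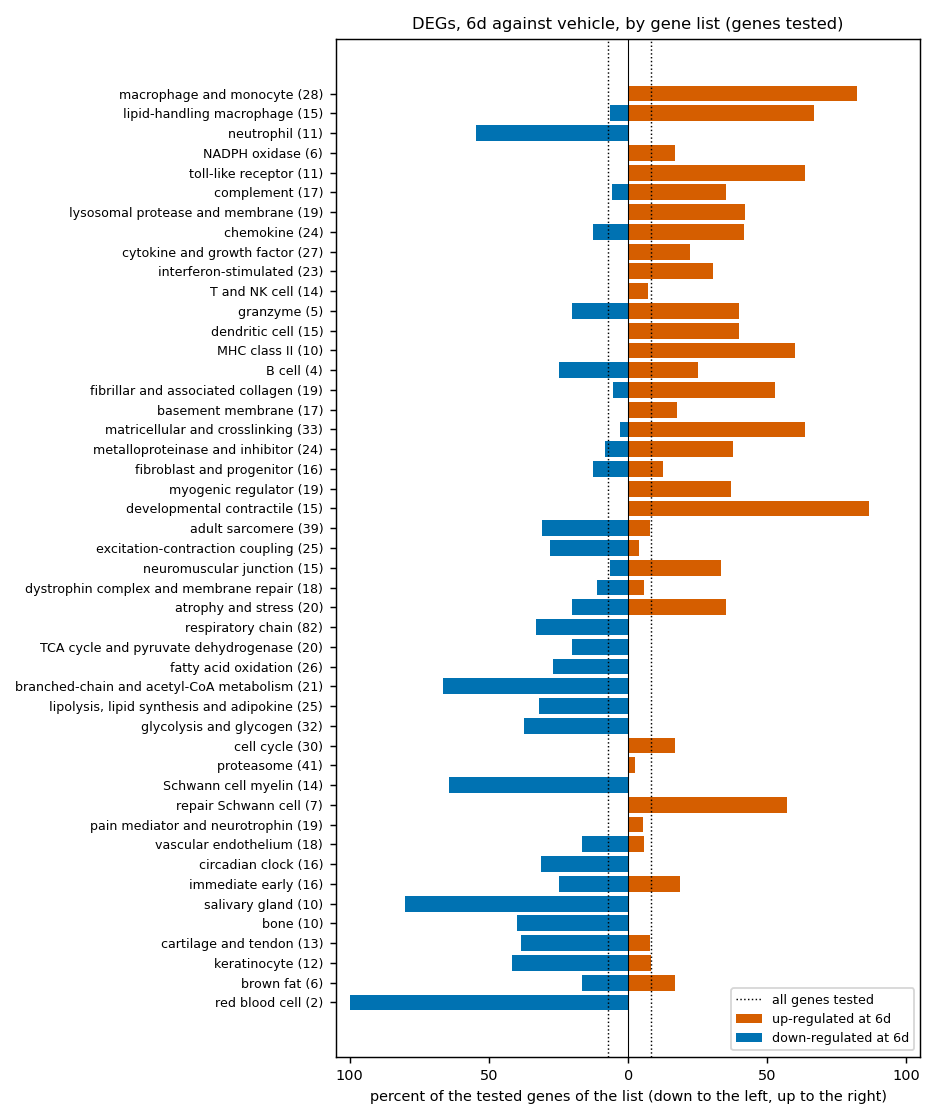
Percent of the tested genes of each list that were up-regulated (right) or down-regulated (left) at 6d post-Col against vehicle; dotted lines mark the shares over all 14281 genes, 8.22% up and 7.35% down. Developmental contractile, macrophage and matricellular genes lie far to the right, and branched-chain and Schwann cell myelin genes, with the salivary gland and red blood cell genes of other tissues, to the left.

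Genes of the neuromuscular junction and of fiber formation were among the largest increases. Chrng, the gamma subunit that marks the fetal acetylcholine receptor, measured 0.261, 0.20 and 0.0895 CPM in the vehicle mice and 90.2, 197 and 110 CPM at 6d (log2 fold change 9.43, SE 0.49, adjusted p = 0.000293). Chrna1, the alpha subunit of both receptor forms, rose from 25.4, 28.7 and 15.0 CPM to 271, 567 and 418 CPM (4.17, SE 0.37, adjusted p = 0.00146). The ranges of the groups were far apart for both genes. Chrng passed the count filter through the 6d mice only and so had to differ. Chrng lies on chr1:89102386-89108410 and Chrna1 on chr2:73401272-73418395 in mm9. The adult counterpart of Chrng, the epsilon subunit Chrne, was at 17.0, 27.9 and 10.7 CPM in vehicle MM and 15.2, 9.82 and 13.0 CPM at 6d, groups that overlap (adjusted p = 0.249). Per length, mean Chrne stood at 11 RPKM and Chrng at 0.0955 RPKM in vehicle MM, whereas at 6d Chrng stood at 68.9 RPKM and Chrne at 7.51 RPKM, so the order of both subunits was opposite in the 2 groups. Of 15 junction genes tested, 5 were up and 1 down. Besides Chrng and Chrna1, the receptor subunits Chrnb1 (2.53) and Chrnd (3.83) and the receptor tyrosine kinase Musk (1.97), which organises the junction, rose on the log2 scale. Lrp4, the agrin receptor that partners Musk, fell from 38.5, 23.8 and 33.8 CPM to 13.8, 12.7 and 14.7 CPM (-1.25, SE 0.22, adjusted p = 0.0104). The median log2 fold change of the list was -0.28 and turned to 0.29 with library totals, and 3 of its genes were up without 6d mouse 2.

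The promoters of Chrng, Chrna1 and Mybph (a myosin-binding protein of developing fibers) are printed because these up-regulated genes of fiber formation hold the E-box CAGCTG, the letters that myogenic basic helix-loop-helix factors such as Myog prefer. Each shows the 250 bases before the transcription start in RefSeq, build GRCm38.p6, read 5′ to 3′ on the gene's strand, with CAGCTG in capitals. This motif reads the same on both strands.

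Chrng, chr1:87205561-87205810 on the plus strand: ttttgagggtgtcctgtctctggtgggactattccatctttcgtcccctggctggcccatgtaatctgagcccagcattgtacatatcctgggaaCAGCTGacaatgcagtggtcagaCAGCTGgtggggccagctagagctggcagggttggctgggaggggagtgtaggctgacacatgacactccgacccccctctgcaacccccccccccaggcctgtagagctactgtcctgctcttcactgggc

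Chrna1, chr2:73580339-73580588 on the minus strand: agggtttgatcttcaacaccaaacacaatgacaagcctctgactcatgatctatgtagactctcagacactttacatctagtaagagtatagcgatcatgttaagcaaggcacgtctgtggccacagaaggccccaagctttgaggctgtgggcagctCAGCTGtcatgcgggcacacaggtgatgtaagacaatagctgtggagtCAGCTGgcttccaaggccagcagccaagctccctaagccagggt

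Mybph, chr1:134193198-134193447 on the plus strand: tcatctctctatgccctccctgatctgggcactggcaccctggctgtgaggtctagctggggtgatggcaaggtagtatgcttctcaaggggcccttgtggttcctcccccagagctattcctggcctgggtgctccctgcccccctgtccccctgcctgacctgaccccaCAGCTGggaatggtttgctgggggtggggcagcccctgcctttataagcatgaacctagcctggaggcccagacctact

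The motif began 155 and 132 bases before the start of Chrng, 92 and 44 before that of Chrna1, and 79 before that of Mybph. It was also present in the same window of Tnnt2, Tnni1 and Musk. Among 25 up-regulated genes of the myogenic, developmental contractile and junction lists, 17 had a promoter in the RefSeq table used and 6 of these (35.3%) held the motif, beside 3450 of all 27025 promoters (12.8%). The match is a description of the letters, and binding was not measured.

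The fusion genes were close to absent in vehicle MM. Tmem8c, which encodes myomaker, measured 0.436, 0.266 and 0.0895 CPM in vehicle mice and 121, 113 and 61.5 CPM at 6d (8.48, SE 0.49, adjusted p = 0.000388). Gm7325, the symbol of the myomerger gene in these tables, had 1 library with any count among the vehicle mice (0, 0.0665 and 0 CPM) and 28.9, 31.1 and 20.4 CPM at 6d, which is at least 173-fold higher when vehicle is set to the floor of 3 counts per library. This gene too passed the filter through the 6d mice only. Both genes were thus separated by orders of magnitude with no overlap. Myog, the factor of terminal differentiation, rose from 7.71, 8.31 and 3.31 CPM to 216, 281 and 189 CPM (5.14, SE 0.38, adjusted p = 0.000899). The factors that act earlier did not pass the test. Myod1 was at 77.9, 87.1 and 73.4 CPM in vehicle MM and 91.3, 121 and 121 CPM at 6d (adjusted p = 0.0743), and Pax7, which marks satellite cells, at 6.45, 3.26 and 2.60 CPM and 8.03, 7.98 and 6.22 CPM (adjusted p = 0.129). In all, 7 of 19 myogenic regulators tested rose and none fell, with a median of 0.82, and 4 rose without 6d mouse 2 and 12 with library totals. The others that rose were the differentiation factor Mef2a (1.44), the satellite cell receptor Megf10 (3.24), the laminin receptor subunit Itga7 (1.38) and the adhesion molecule Ncam1, which went from 18.8, 11 and 19.4 CPM to 136, 180 and 109 CPM (3.07, SE 0.30, adjusted p = 0.002).

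Contractile genes of developing fibers rose almost as a whole. Of 15 tested, 13 were up and none down, with a median log2 fold change of 4.88 beside 0.01 over all genes, and between 12 and 14 rose when any 1 of the 6 mice was left out. Myh3, the embryonic myosin heavy chain, went from 17.3, 24.1 and 18.3 CPM to 790, 877 and 457 CPM (5.14, SE 0.33, adjusted p = 0.000548). Myh8, the neonatal heavy chain, was already present in vehicle MM at 823, 200 and 287 CPM, and reached 1408, 3161 and 1955 CPM at 6d (2.28, SE 0.60, adjusted p = 0.0295). This call was kept in 1 of the 6 fits that leave out a mouse (highest adjusted p = 0.0982), and 16.7% of the 50-base windows of Myh8 also occur in other myosin genes, mostly Myh2. Myl4, the embryonic light chain, rose from 5.53, 2.39 and 6.00 CPM to 599, 615 and 307 CPM (6.72, SE 0.50, adjusted p = 0.000899). Tnnt2, the cardiac and embryonic troponin T, rose from 0.567, 0.599 and 1.57 CPM to 178, 162 and 72.1 CPM (7.17, SE 0.56, adjusted p = 0.00106). Sln, sarcolipin, a regulator of the calcium pump, rose from 2.88, 0.466 and 1.43 CPM to 91.8, 313 and 147 CPM (6.76, SE 0.72, adjusted p = 0.00246). For each of these genes the lowest 6d mouse lay above the highest vehicle mouse. Mybph rose from 4.49, 3.13 and 1.57 CPM to 76.0, 201 and 84.3 CPM (5.27, SE 0.54). The slow or cardiac members Tnni1 (6.39), Tnnc1 (4.88), Actc1 (2.27) and Ankrd1 (6.42), the imprinted genes H19 (4.28) and Dlk1 (3.30), and the intermediate filament gene Nes (2.03) completed the list of increases. Slow troponin T, Tnnt1, which was listed with the adult sarcomere, rose in the same way from 8.32, 2.66 and 7.79 CPM to 215, 457 and 205 CPM (5.49, SE 0.56, adjusted p = 0.00213).

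**Figure D2:**
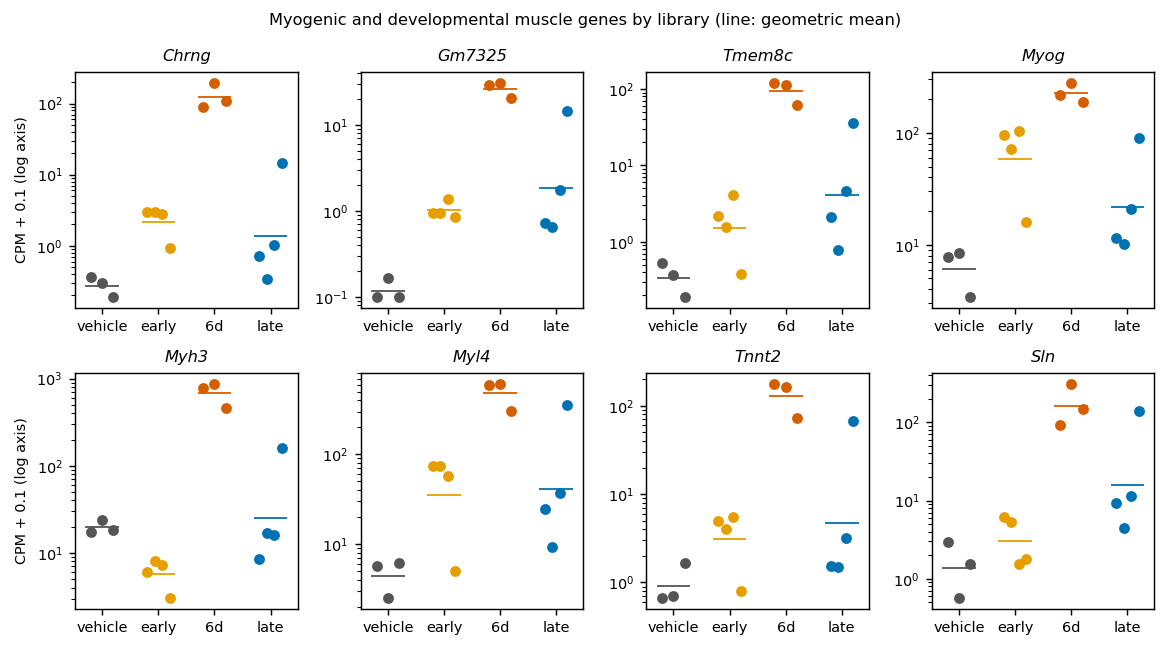
CPM of 8 genes of fiber formation in each library of the vehicle, early, 6d and late groups (y axis log10 of CPM plus an offset of 0.1; each point is 1 mouse and the line is the geometric mean). The 6d mice lie above every vehicle mouse for all 8 genes, and late mouse 4 lies above the other late mice, as in Chrng with 14.7 CPM against 0.245 to 0.916.

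Adult contractile genes moved the other way. Of 39 adult sarcomere genes, 12 fell and 3 rose, with a median of -0.88 that was -0.31 with library totals, under which 6 fell and 6 rose. The count of decreases rested on each mouse of the 6d group, on vehicle mouse 1 and on vehicle mouse 2, with 2, 4 and 2 decreases without 6d mice 1, 2 and 3, and 3 and 7 without vehicle mice 1 and 2. The median of the list was -0.76 without vehicle mouse 1 or 2 and -0.93 without vehicle mouse 3. Myh4, the fastest myosin heavy chain, was at 15088, 24718 and 24005 CPM in vehicle MM and 5401, 1858 and 6455 CPM at 6d (-2.23, SE 0.60, adjusted p = 0.0318), a call lost in all 6 fits that leave out a mouse (highest adjusted p = 0.104). Mylk2, the kinase of the skeletal light chain, fell from 1461, 1767 and 1023 CPM to 333, 98.8 and 287 CPM (-2.57, SE 0.49, adjusted p = 0.0123). Fast troponins Tnni2 (-1.47) and Tnnc2 (-1.43), myosin-binding protein Mybpc2 (-2.01), and the Z-disc genes Myoz1 (-1.85), Myoz3 (-1.86) and Tcap (-1.67) fell as well. The slow calsarcin Myoz2 (2.14) and Myom3 (1.83) rose beside Tnnt1, with 1 increase in the list without 6d mouse 1 or 2. Acta1, the skeletal alpha-actin, was at 40615, 35982 and 20193 CPM in vehicle MM and 12292, 8970 and 14874 CPM at 6d (adjusted p = 0.0742), and Myh1 and Myh2 overlapped between groups (adjusted p = 0.563 and 0.632).

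Of 25 genes of excitation-contraction coupling, 7 fell and 1 rose, with a median of -0.85, while with library totals 1 fell and 2 rose with a median of -0.32. The sodium channel Scn4a fell from 822, 611 and 514 CPM to 266, 151 and 283 CPM (-1.49, SE 0.32, adjusted p = 0.0173), and the calcium channel subunit Cacng6 fell by 1.59 on the log2 scale. The count was 1, 2 and 3 without 6d mice 1, 2 and 3, 2 without vehicle mouse 1 and 11 without vehicle mouse 3. Casq2, the calsequestrin of slow and cardiac muscle, rose from 47.1, 30.9 and 28.8 CPM to 241, 214 and 146 CPM (2.47, SE 0.28, adjusted p = 0.00283), while Casq1, the fast form, was at 4258, 5328 and 2877 CPM and 2287, 1246 and 2337 CPM (adjusted p = 0.0772). In the dystrophin complex and membrane repair list 1 of 18 rose (Anxa2, an annexin that patches membranes, 1.08) and 2 fell, among them the neuronal nitric oxide synthase Nos1 (-1.54), and none of the 3 was called without 6d mouse 1 or 2. With library totals 3 rose and none fell.

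The list of atrophy and stress genes was mixed, with 7 of 20 up, 4 down and a median of 0.21. Cdkn1a, the p21 inhibitor that stops cycling cells, rose from 102, 82.7 and 55.5 CPM to 393, 1646 and 1051 CPM (3.66, SE 0.54, adjusted p = 0.00564). Gadd45a, a stress gene also induced by denervation, rose from 14.9, 16.2 and 17.7 CPM to 64.1, 345 and 282 CPM (3.80, SE 0.58, adjusted p = 0.00624). In both genes 6d mouse 1 was the lowest of its group. Mstn, the brake on muscle growth, fell from 51.8, 77.5 and 91.8 CPM to 23.8, 6.50 and 27.3 CPM (-1.96, SE 0.50, adjusted p = 0.0286), and Gadd45g fell by 2.73 on the log2 scale. The ubiquitin ligases of atrophy, Trim63 and Fbxo32, overlapped between groups (adjusted p = 0.538 and 0.501). The increases numbered 4 without 6d mouse 2 or without vehicle mouse 1, and the decreases 2 without 6d mouse 1.

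Genes of energy metabolism were lower or level. None of the 82 respiratory chain genes tested rose and 27 fell, with a median of -0.94, and 51 lay below the vehicle range without overlap, where 22.5% of all genes did so. Atp5e, a subunit of ATP synthase, was at 487, 551 and 133 CPM in vehicle MM and 101, 75.7 and 97.3 CPM at 6d (-2.10, SE 0.48, adjusted p = 0.0201), with vehicle mouse 3 close to the 6d range and the call kept in 2 of 6 fits that leave out a mouse. Ndufb4 of complex I fell from 24.1, 25.1 and 9.85 CPM to 4.51, 4.07 and 6.60 CPM (-1.97, SE 0.38, adjusted p = 0.013). Cox7a1 of complex IV and Sdha of complex II fell by 1.69 and 1.04 on the log2 scale. The number of decreases changed with the mouse left out: 1, 1 and 6 without 6d mice 1, 2 and 3. It was 2, 12 and 50 without vehicle mice 1, 2 and 3, with medians of -0.82, -0.79 and -1.19. With library totals 6 fell and the median was -0.38.

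Fuel use showed the same sign. Of 21 genes of branched-chain amino acid and acetyl-CoA metabolism, 14 fell and none rose (median -1.08), with 5 decreases without 6d mouse 1 or 2 and 3 with library totals. The median of these genes was -1.03, -1.14 and -1.24 without vehicle mice 1, 2 and 3. Ivd, which oxidises a leucine product, fell from 322, 274 and 140 CPM to 71.1, 64.2 and 78.9 CPM (-1.79, SE 0.30, adjusted p = 0.00897), and Acss1, which makes acetyl-CoA in mitochondria, fell by 2.29 on the log2 scale. Of 26 fatty acid oxidation genes 7 fell (median -0.76), or 2 with library totals (median -0.25), with 3, 2 and 4 without 6d mice 1, 2 and 3 and 2 without vehicle mouse 1. Mlycd, which lifts the brake on fatty acid import, fell from 159, 133 and 85.4 CPM to 49.6, 33.4 and 40.2 CPM (-1.63, SE 0.26, adjusted p = 0.00774), and the importer Cpt1b fell by 1.33 on the log2 scale. Of 20 genes of the TCA cycle and pyruvate dehydrogenase 4 fell (median -0.88) and none with library totals (median -0.33), a count that ran from 0 without 6d mouse 2 or vehicle mouse 1 to 11 without vehicle mouse 3, with 1 without 6d mouse 1 and 2 without 6d mouse 3 or vehicle mouse 2.

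Of 25 genes of lipolysis, lipid synthesis and adipokines 8 fell and none rose (median -1.19), or 1 with library totals (median -0.65), with 2 without 6d mouse 1 or 2 and 5 without 6d mouse 3. Hormone-sensitive lipase Lipe fell from 64.1, 62.4 and 82.6 CPM to 32.9, 25.3 and 27.3 CPM (-1.32, SE 0.19, adjusted p = 0.00566), and the lipid droplet protein Plin4 fell by 2.14 on the log2 scale. The adipocyte genes Lep (-1.72) and Retn (-1.87) fell, and Adipoq was at 18.7, 30.9 and 52.8 CPM and 16.6, 7.02 and 15.9 CPM (adjusted p = 0.0554). Glycolysis and glycogen genes were lower too, with 12 of 32 down and none up (median -1.03), or 4 down and 1 up with library totals (median -0.48), and 3, 5, 4 and 5 down without 6d mice 1 and 2 and vehicle mice 1 and 2. Phkg1, the catalytic subunit of phosphorylase kinase, fell from 684, 780 and 545 CPM to 151, 62.1 and 148 CPM (-2.49, SE 0.38, adjusted p = 0.00629). The glucose transporters Slc2a4 (-1.83) and Slc2a3 (-2.03) fell with it, the latter from 32.3, 28.9 and 30.8 CPM to 7.60, 6.88 and 8.46 CPM.

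Most macrophage genes were higher at 6d. Of 28 macrophage and monocyte genes tested, 23 rose and none fell (median 2.65), and 23 lay above the vehicle range without overlap, where 24.8% of all genes did so. Without 6d mice 1 and 2 the count was 12 and 9, and without vehicle mouse 1 it was 15. The pan-macrophage genes Emr1 (F4/80), Cd68 and Csf1r rose by 2.80, 3.38 and 1.61 on the log2 scale. Cx3cr1, the fractalkine receptor of resident-type macrophages, was at 2.31, 3.13 and 5.01 CPM in vehicle mice and 40.9, 64.8 and 26.6 CPM at 6d (3.62, SE 0.42, adjusted p = 0.00292). Ccr2, the receptor by which monocytes leave the marrow, was at 4.36, 2.39 and 14.1 CPM and 32.9, 43.2 and 33.2 CPM (2.33, SE 0.59, adjusted p = 0.0269). Both receptors were thus higher in every 6d mouse than in any vehicle mouse. Clec4n (dectin-2, a receptor for fungal sugars) rose from 0.218, 0.266 and 0.134 CPM to 30.6, 40.0 and 16.6 CPM (7.11, SE 0.46, adjusted p = 0.000548), and Ms4a7 from 1.35, 1.73 and 1.57 CPM to 43.0, 73.7 and 27.3 CPM (4.93, SE 0.40, adjusted p = 0.00125). Clec4n passed the count filter through the 6d mice only. In most of these genes 6d mouse 2 was the highest and 6d mouse 3 the lowest. Mrc1 (CD206), a marker of alternatively activated macrophages, rose less, from 23.7, 8.51 and 26.4 CPM to 44.8, 73.5 and 57.1 CPM (1.54, SE 0.41, adjusted p = 0.032). Lyve1, carried by perivascular macrophages and lymphatic vessels, was lower in value at 15.5, 2.19 and 18.8 CPM against 2.23, 2.22 and 5.85 CPM, with overlap (adjusted p = 0.0987).

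Genes by which macrophages take up and break down debris rose in part. Of 15 genes of lipid-handling macrophages 10 rose and 1 fell (median 1.56). Trem2, a receptor for lipids of dying cells, rose from 1.18, 0.599 and 1.88 CPM to 39.3, 45.6 and 19 CPM (4.75, SE 0.49, adjusted p = 0.00223), and Gpnmb from 8.72, 3.59 and 14.2 CPM to 139, 219 and 77.5 CPM (3.98, SE 0.58, adjusted p = 0.00545). Apoe (3.10), Lgals3 (2.95) and Fabp5 (2.52) rose too. The member that fell, lipoprotein lipase Lpl (984, 852 and 969 CPM to 390, 237 and 438 CPM, -1.42), is also abundant in muscle and fat. Of 19 lysosomal genes 8 rose and none fell (median 0.90), or 14 with library totals, led by the cysteine protease Ctss, from 14.4, 14.0 and 31.9 CPM to 335, 495 and 217 CPM (4.07, SE 0.47, adjusted p = 0.00292), and by Lgmn (2.30). The osteoclast protease Ctsk did not follow them (8.38 to 115 CPM in vehicle MM, 48.3 to 90.8 CPM at 6d, adjusted p = 0.944). Of 17 complement genes 6 rose and 1 fell (median 0.38): the C1q chains C1qa (2.80), C1qb (2.89) and C1qc (2.61), the anaphylatoxin receptors C3ar1 (4.02) and C5ar1 (1.91), and properdin Cfp (1.2). Cfd, adipsin, which adipocytes make, fell by 1.46 on the log2 scale. Of 11 toll-like receptor genes 7 rose and none fell (median 1.97), with 3 and 2 without 6d mice 1 and 2. Tlr1 had the highest log2 fold change (4.36, SE 0.40), followed by Tlr13 (3.38), Tlr7 (3.04) and Tlr8 (3.04), while Tlr4, the endotoxin receptor, overlapped between groups (adjusted p = 0.0702). Of 6 NADPH oxidase subunit genes only Cyba passed (1.37), and Cybb was at 66.3, 94.0 and 47.9 CPM against 11.5, 3.66 and 46.3 CPM in vehicle MM (adjusted p = 0.135). The count was 0 without 6d mouse 1 or 2 or vehicle mouse 1 or 2, and 5 without vehicle mouse 3, which held the highest vehicle level of Cybb.

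Among chemokines, 10 of 24 tested rose and 3 fell (median 0.89), with 2, 1 and 6 increases without 6d mice 1, 2 and 3 and 6 without vehicle mouse 1. Several increases started from levels near the detection limit. The monocyte attractant Ccl2 was at 0.697, 0.20 and 0.492 CPM in vehicle mice and 2.75, 8.86 and 1.62 CPM at 6d (3.16, SE 0.74, adjusted p = 0.0222), and its neighbour Ccl7 at 0.305, 0.266 and 0.269 CPM and 3.78, 6.85 and 1.66 CPM (3.81, SE 0.59, adjusted p = 0.00659). Ccl3 rose at least 18.8-fold over the floor. Of the chemokines tested 3, Ccl3 and Ccl7 among them, passed the count filter through the 6d mice only and so had to differ. Cxcl16, the membrane-bound ligand of Cxcr6, rose from 6.62, 8.58 and 7.25 CPM to 43.9, 52.6 and 28.3 CPM (2.45, SE 0.25, adjusted p = 0.00219). Cxcl12, the stromal chemokine, was somewhat lower in value at 6d (300, 254 and 280 CPM in vehicle mice and 203, 190 and 218 CPM, adjusted p = 0.0876). The decreases were the eosinophil attractants Ccl11 (-1.2) and Ccl24 (-1.50) and the platelet chemokine Ppbp (-5.55), which follows blood cell markers, with no chemokine decreased without 6d mouse 1 or 2 and 1 without 6d mouse 3. Of 27 cytokine and growth factor genes 6 rose and none fell (median 0.80). Igf1 rose from 23.5, 27.4 and 66.4 CPM to 211, 250 and 164 CPM (2.37, SE 0.42, adjusted p = 0.0103), Igf2, a fetal growth factor also made by differentiating myoblasts, from 70.7, 53.4 and 70.4 CPM to 591, 592 and 274 CPM (2.87, SE 0.34, adjusted p = 0.00306), and Hgf (3.15), which activates satellite cells, Tgfb1 (1.44), Tgfb3 (1.53) and Tslp (1.91) rose too. The early cytokines Il1b (adjusted p = 0.0709) and Tnf (adjusted p = 0.524) did not pass, and Il6, at most 0.516 CPM in any 6d mouse, missed the RPKM threshold. The list had 3 increases without 6d mouse 1 or 2 or vehicle mouse 1.

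Antigen presentation genes were partly higher, whereas few lymphocyte genes could be tested. Of 10 MHC class II genes tested 6 rose and none fell (median 1.23), with 3 without 6d mouse 1 or 2. H2-Ab1 went from 44.4, 43.5 and 61.0 CPM to 149, 177 and 126 CPM (1.57, SE 0.22, adjusted p = 0.00481), and the invariant chain Cd74 rose by 1.16 on the log2 scale. Of 15 dendritic cell genes 6 rose and none fell (median 1.97), Itgax (CD11c) by 3.21, again with 3 without 6d mouse 1 or 2. Of 27 genes of T and NK cells 14 could be tested, and only Cd4 rose (1 of 14, beside 8.22% of all genes), from 0.567, 0.599 and 2.19 CPM to 6.44, 8.59 and 4.48 CPM (2.47, SE 0.59, adjusted p = 0.0224), which was not called without 6d mouse 1 or 2 or vehicle mouse 1. Over the 14 genes the median was 0.96, with 11 positive and 3 negative values. Cd3e, which every T cell needs, was at 0.166 to 0.387 CPM at 6d and was not tested. Cd8a was at 0.548 CPM or less (0.89, not a DEG). Macrophages of some tissues also express Cd4, and the cells that carried it were not resolved here. Of 10 granzyme genes 5 were tested, 2 rose and 1 fell (median 2.56), and 3 passed the count filter through the 6d mice only. Gzmd and Gzme had no count in any vehicle mouse and measured 5.37, 4.76 and 2.57 CPM and 6.62, 8.08 and 2.41 CPM at 6d, at least 27.3-fold and 36.8-fold higher, while 21.9% and 19.3% of their 50-base windows are shared, mostly with each other. The granzymes of classical killer cells were low at 6d, with Gzmb at 0.644, 1.54 and 0.539 CPM and Gzma at 1.07, 1.99 and 0.415 CPM. Their log2 fold changes were 2.56 and 2.19, and neither was a DEG. Gzmm fell by 1.95 on the log2 scale. Of 23 interferon-stimulated genes 7 rose and none fell (median 1.06), the antiviral Mx1 by 2.65 and the nucleic acid sensor Zbp1 by 2.50, and the count was 1, 0, 1 and 4 without 6d mice 1 and 2 and vehicle mice 1 and 2 and 15 with library totals. Isg15 overlapped between groups (adjusted p = 0.434). Of 11 B cell genes 4 were tested, of which Cd22 rose (2.95) and the joining chain Igj fell (-5.18), neither called without 6d mouse 1 or 2. Cd79a and Ms4a1, which define B cells, were at 0.301 CPM or less in all 6d mice.

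**Figure D3:**
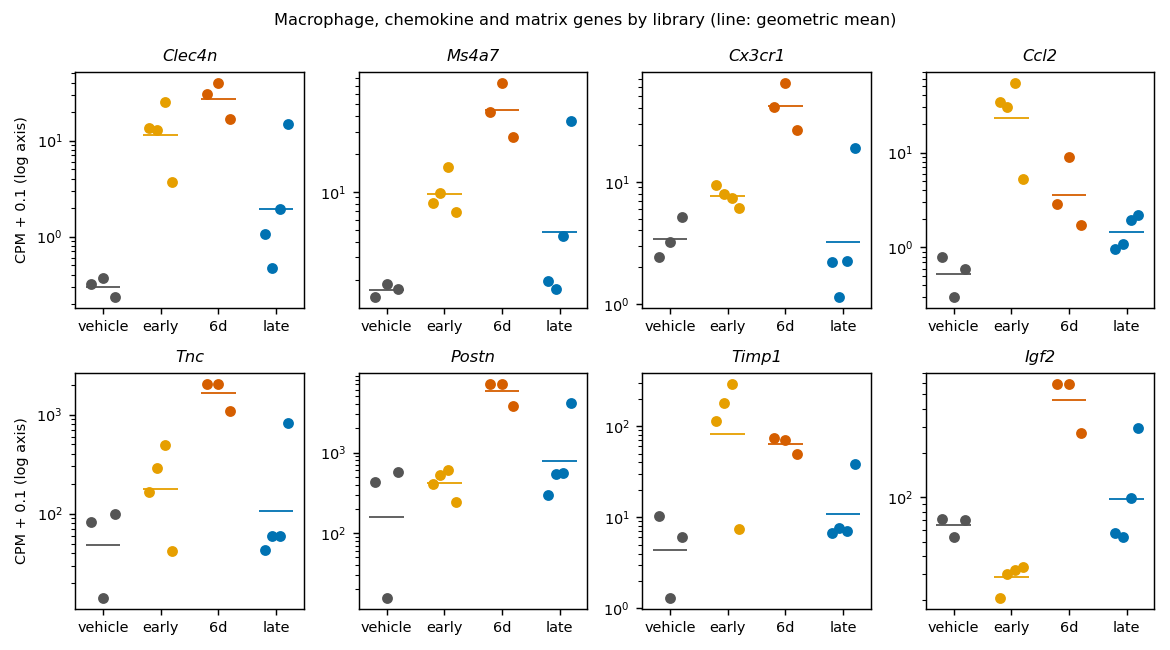
CPM of 4 immune genes and 4 matrix or growth factor genes in each library of the vehicle, early, 6d and late groups (y axis log10 of CPM plus an offset of 0.1; each point is 1 mouse and the line is the geometric mean). Ccl2 was highest in the early mice other than mouse 4 (30.2 to 54.4 CPM), whereas the 6d mice lay highest in Cx3cr1 (26.6 to 64.8 CPM).

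Markers of neutrophils, red blood cells, bone and salivary gland varied widely between single vehicle mice. Of 11 neutrophil genes none rose and 6 fell (median -4.78), and 7 of the 11 follow salivary gland, bone or red blood cell markers over the other libraries. S100a9 measured 116, 3.99 and 411 CPM in vehicle mice and 1.46, 0.993 and 2.28 CPM at 6d, so that the vehicle values spanned 2 orders of magnitude. The mean log2 CPM of neutrophil markers in vehicle mouse 2 (0.50) lay below the 6d range of 0.53 to 0.78. At 6d 4 of the 11 genes lay below all vehicle mice without overlap, where 22.5% of all genes did so. The count was 0, 0 and 1 without 6d mice 1, 2 and 3 and 1 of 4 without the genes that follow such markers. The mean log2 CPM of red blood cell markers was 0.07 to 5.21 in vehicle mice and -0.51 to -0.25 at 6d, ranges that do not overlap. That of bone markers was 0.94 to 4.10 in vehicle mice and 0.64 to 1.36 at 6d, ranges that overlap. Of 10 bone genes 4 fell, of 13 cartilage and tendon genes 5 fell and Scx, the tendon progenitor factor, rose (2.10), of 12 keratinocyte genes 5 fell and Sprr1a rose (3.12), and of 6 brown fat genes 1 fell and 1 rose. Bone decreases numbered 2 without 6d mouse 1 or vehicle mouse 1 or 3. Cartilage and tendon decreases numbered 0 without 6d mouse 1 or 2, 1 without 6d mouse 3 or vehicle mouse 1 or 3, and 7 without vehicle mouse 2. Keratinocyte decreases numbered 2 without any 1 of the 6d mice. The mean log2 CPM of keratinocyte markers was 1.21 to 2.27 in vehicle mice and 0.69 to 0.82 at 6d, ranges that do not overlap. Of the 12 keratinocyte genes 9 lay below and 1 above the vehicle range without overlap, where 22.5% and 24.8% of all genes did so. Ucp1, which defines brown fat, was at 18.9 CPM in 6d mouse 1 and at 0.137 and 2.03 CPM in the others. Of 42 salivary gland genes, 10 passed the count filter and 8 fell, among them Amy1 (62.0, 38738 and 15441 CPM to 22.9, 10.3 and 31 CPM), a count that was 0 without 6d mouse 1 or 2, 3 without 6d mouse 3 or vehicle mouse 2 and 4 without vehicle mouse 1 or 3. These salivary gland genes are set apart from the muscle results by the rule of the comparison. The 5 largest decreases outside that list, Bpifa2e, Smr3a, Chia, 2310057J18Rik and Wfdc12, had the same pattern of vehicle levels, as in Smr3a with 21.7, 95367 and 22369 CPM. Without all 449 tested genes that follow the markers of salivary gland, bone or red blood cells, which hold 8 increases and 115 decreases, 1228 DEGs were up and 1025 down. The collagen list below lost members in the same way, and no further part of these tissues in the results was tested.

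**Figure D4:**
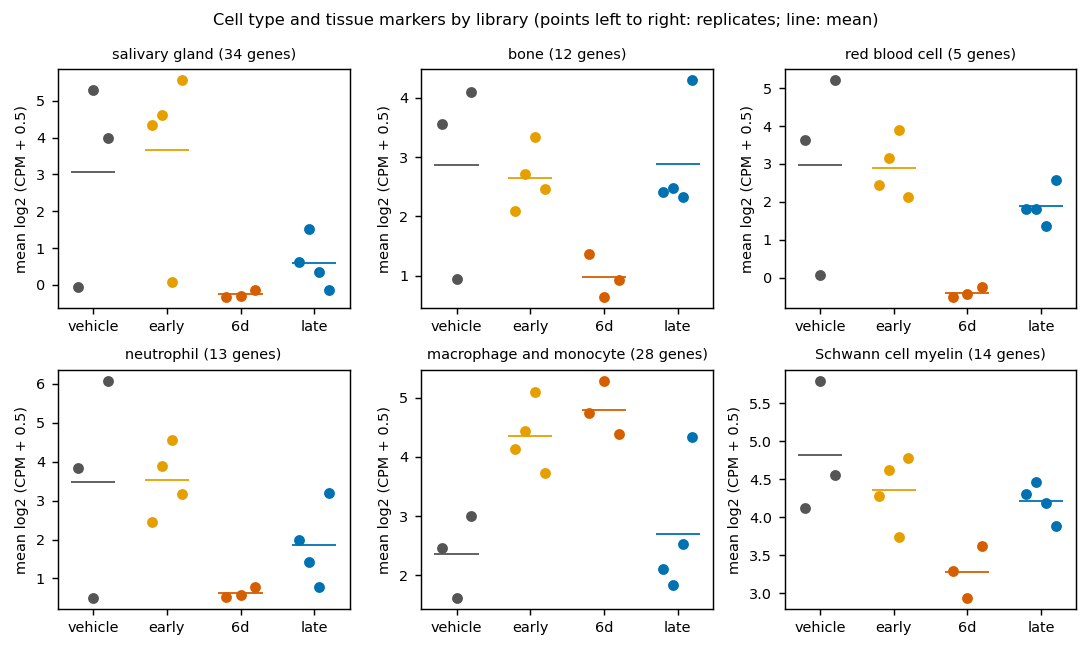
Mean log2(CPM + 0.5) of 6 marker lists in each library of the vehicle, early, 6d and late groups; each point is 1 mouse. Red blood cell markers ranged from 0.07 to 5.21 in vehicle mice and from -0.51 to -0.25 at 6d, while macrophage markers ranged from 4.38 to 5.28 at 6d and from 1.62 to 3.0 in vehicle mice.

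Matrix genes were the other large group of increases. Of 33 matricellular and crosslinking genes 21 rose and 1 fell (median 2.14), with 12 without 6d mouse 1 or 2. Tnc, tenascin-C of the provisional matrix, was at 82.8, 14.0 and 98.7 CPM in vehicle MM and 2049, 2042 and 1075 CPM at 6d (4.68, SE 0.76, adjusted p = 0.00774). Postn, periostin, was at 427, 15.5 and 581 CPM and 7118, 7178 and 3759 CPM (4.09, SE 1.12, adjusted p = 0.034), a call kept in 2 of 6 fits that leave out a mouse. Fn1, fibronectin, rose from 312, 74.0 and 278 CPM to 1904, 1985 and 1161 CPM (2.89, SE 0.57, adjusted p = 0.0134). Vehicle mouse 2 was the lowest of its group in all 3 genes. The collagen crosslinker Lox rose from 21.6, 8.38 and 23.1 CPM to 236, 249 and 153 CPM (3.55, SE 0.42, adjusted p = 0.00311), and the developmental fibrillin Fbn2 from 1.26, 0.133 and 0.671 CPM to 29.2, 31.8 and 13.1 CPM (5.04, SE 0.63, adjusted p = 0.00365). Cthrc1 (4.51), Vcan (4.0), Plod2 (3.61) and Thbs2 (3.05) rose too, and the tendon proteoglycan Fmod fell (-2.79), although vehicle mouse 2 at 80.7 CPM lay within the 6d range of 76.0 to 135 CPM.

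Of 19 fibrillar and associated collagens 10 rose and Col2a1, the cartilage collagen, fell (median 1.79), with 3 increases without 6d mouse 1 or 2. Col3a1 went from 1972, 379 and 1616 CPM to 7314, 7290 and 4632 CPM (2.24, SE 0.63, adjusted p = 0.0364), a call kept in 1 of 6 fits that leave out a mouse, and Col8a1 from 13.8, 7.72 and 18.8 CPM to 211, 196 and 118 CPM (3.66, SE 0.39, adjusted p = 0.00246). Col1a1 was at 2257, 145 and 1636 CPM and 5587, 5538 and 2816 CPM, without overlap but short of the threshold (adjusted p = 0.158). Without the 9 collagens that follow bone or other tissue markers, 9 of 10 rose and none fell. Of 17 basement membrane genes 3 rose (median 0.20), or 8 with library totals, Col18a1 by 2.06 and Lamb1 by 1.64, while Lama2, the laminin of adult fibers, overlapped. Among 24 metalloproteinases and inhibitors 9 rose and 2 fell (median 0.52), with 5 increases without 6d mouse 1 or 2. The macrophage elastase Mmp12 (5.67), the membrane-bound Mmp14 (2.51) and Adamts4 (3.60) rose, as did the inhibitor Timp1, from 10.3, 1.2 and 6.04 CPM to 73.9, 69.9 and 48.9 CPM (3.40, SE 0.63, adjusted p = 0.0113). The inhibitors Timp3 (-1.50) and Timp4 (-2.81) fell, Timp4 from 39.2, 72.2 and 24.4 CPM to 5.80, 3.32 and 10.3 CPM, with 0 and 1 decreases in the list without 6d mice 1 and 2 and 5 without vehicle mouse 2. Fibroblast and progenitor genes did not move as a list, with 2 up, 2 down and a median of 0.05 over 16 genes. Pdgfra, which marks fibro-adipogenic progenitors, overlapped (adjusted p = 0.751), Thy1 (1.57) and Cd248 (1.42) rose, and Dpp4 (-1.33) and Clec3b (-1.12) fell, none of which was called without 6d mouse 1 or 2. With library totals 4 rose and none fell.

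Cell cycle genes were higher in value at 6d (median 1.36 over 30), but 5 passed the test, among them Cdk1, which drives entry into mitosis, from 4.14, 1.53 and 7.07 CPM to 19.7, 22.9 and 11.9 CPM (2.04, SE 0.52, adjusted p = 0.0274). Mki67 was at 12.0, 2.39 and 116 CPM in vehicle mice and 90.1, 86.8 and 47.0 CPM at 6d (adjusted p = 0.64), so vehicle mouse 3 alone lay above all 6d mice. Without vehicle mouse 3, 21 of the genes rose, without 6d mouse 3 it was 3, and without 6d mouse 1 or 2 or vehicle mouse 1 none did, while with library totals 9 rose. Of 41 proteasome genes 1 rose (Psmc6, 1.03), with a median of 0.10, and with library totals 7 rose with a median of 0.68.

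Genes of the nerve branches within the muscle were described by 2 lists. Of 14 Schwann cell myelin genes 9 fell and none rose (median -1.94), with 2 and 1 without 6d mice 1 and 2, and with 8 down and 2 up with library totals. Prx, periaxin, which stabilises peripheral myelin, fell from 59.5, 144 and 54.8 CPM to 14.0, 7.74 and 17.8 CPM (-2.71, SE 0.45, adjusted p = 0.00853). The Schwann cell factor Sox10 fell by 2.90, but its vehicle levels (8.50, 67.5 and 31.8 CPM) were highest in the mice with salivary gland signal, a gland that expresses it too. Of 7 genes of repair Schwann cells tested 4 rose and none fell: the neurotrophin receptor Ngfr (1.28), Gdnf (1.78), Ncam1 and Tnc, of which Ncam1 is also a gene of regenerating fibers and Tnc a matrix gene. The count was 2 without 6d mouse 2 or 3 or vehicle mouse 2. Of 19 pain mediators and neurotrophins only Ptgs2, the inducible cyclooxygenase, rose, from 0.523, 0.20 and 0.761 CPM to 4.17, 9.52 and 4.52 CPM (3.52, SE 0.56, adjusted p = 0.00716). Bdnf was higher in value, at 1.85, 2.22 and 3.94 CPM at 6d and 0.931 to 1.16 CPM in vehicle mice (adjusted p = 0.0442, with a mean RPKM below the threshold).

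Of 18 genes of vascular endothelium 1 rose (the apelin receptor Aplnr, 1.75) and 3 fell (Flt1 by 1.2, Vwf by 1.07 and Esm1 by 1.60 on the log2 scale), with a median of -0.32. With library totals 4 rose, none fell and the median was 0.18. There was 1 decrease without 6d mouse 1 or 2 or vehicle mouse 1 and 5 without vehicle mouse 3. Pecam1 overlapped between groups (adjusted p = 0.30). Of 16 circadian clock genes 5 fell and none rose (median -0.67), and between 4 and 6 fell when any 1 of the 6 mice was left out, with 1 increase without vehicle mouse 3. With library totals 3 fell and 1 rose with a median of -0.14. Per1 fell from 86.2, 85.9 and 97.2 CPM to 13.1, 14.5 and 16.6 CPM (-2.63, SE 0.17, adjusted p = 0.000548), and Dbp, an output gene of the clock, from 66.1, 85.7 and 69.3 CPM to 14.7, 12.3 and 12.9 CPM (-2.49, SE 0.17, adjusted p = 0.000642). Arntl, which peaks in the opposite phase, was level (30.5, 24.0 and 25.7 CPM against 27.3, 23.3 and 35.0 CPM). The hour of collection is not given in the sources used here, and its part in these values was not tested. Among 16 immediate early genes 3 rose (Junb 1.93, Egr1 2.12 and Egr3 3.27) and 4 fell (Nr4a1 by 2.67, Nr4a2 by 1.54, Klf2 by 1.38 and Klf4 by 1.08 on the log2 scale). None of the increases was kept without 6d mouse 2, and 1 gene fell without 6d mouse 1 or 2. With library totals 6 rose and 1 fell.

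Several of the largest increases lay outside the lists. Gdf15, a stress cytokine that acts on the brainstem, was at 0, 0.20 and 0.134 CPM in vehicle mice and 9.11, 62.0 and 75.3 CPM at 6d, at least 315-fold higher than the floor. Fgf21, a hormone that stressed muscle releases, was at 0, 0.0665 and 0 CPM and 4.25, 3.87 and 2.45 CPM (at least 22.7-fold), and Orm2, an acute-phase glycoprotein, at 0, 0.0665 and 0.0448 CPM and 2.36, 9.04 and 9.13 CPM (at least 44.2-fold). Agtr2, the type 2 angiotensin receptor, measured 3.82, 7.15 and 4.73 CPM at 6d (at least 33.8-fold). R3hdml, a secreted protein, had no count in vehicle mice and measured 8.29, 10.5 and 5.18 CPM at 6d, at least 51.6-fold higher. All 5 genes passed the count filter through the 6d mice only, so they had to differ, and they could not be tested without any 1 of the 6d mice.

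A further set of genes separated all 11 libraries of 10U from all 20 others on 1 side and was kept apart, since the early, 6d and late mice share both the treatment and the higher ambiguous share. There were 89 such genes above, 42 of them up-regulated at 6d, and 51 below, 35 of them down-regulated. The rule itself parts the 6d mice from the vehicle mice, so the direction was fixed and these calls are no test. Of those below 45 (88.2%) and of those above 35 (39.3%) overlap an exon on the opposite strand in the annotation, compared with 21.9% of all genes tested. The best expressed above were Mtdh (0.80), Kif5b (1.16), Srsf11 (0.91), Hnrnpa0 (0.71) and Tcf4 (0.76), of which Kif5b, a motor protein, was a DEG. The best expressed below were Carm1, an arginine methyltransferase (-1.13), Pcbp2 (-0.90), Lrrc14b (-2.66), Phospho1 (-3.75) and Serf2 (-2.02). Phospho1 measured 200, 238 and 146 CPM in vehicle mice and 16.1, 9.41 and 18.2 CPM at 6d, but early and late mice lay at 9.37 to 29.7 CPM, opposite-strand exons cover 79.4% of its own, and 80.6% of its 50-base windows occur in Zfp652 too. Against the early group, 4 of the genes above and none of those below were DEGs. With library totals 121 genes lay above and 19 below. Without these genes and the salivary gland genes 1129 DEGs were up and 1003 down.

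The same 6d libraries were then set against the early and late groups, comparisons that share those libraries with each other and with the comparison above. Against the early group 439 DEGs were up (3.02% of 14513 genes) and 342 down (2.36%), and without early mouse 4 it was 867 and 674. Of the 342 down, 162 follow salivary gland, bone or red blood cell markers, genes that were chosen in part on the early mice. The developmental contractile genes were higher than in the early group for 11 of 15 (with 11 higher and 3 lower without early mouse 4). Myh3 was at 2.94 to 7.98 CPM in the early mice (log2 fold change 6.90, SE 0.44, adjusted p = 0.00103), and Chrng at 0.824 to 2.91 CPM (5.87, SE 0.48, adjusted p = 0.00185). Myog was at 96.4, 72.4, 103 and 15.8 CPM early (1.69, adjusted p = 0.091, and 1.35, adjusted p = 0.00267, without early mouse 4). Pax7 was at 0.27 to 2.04 CPM early and 6.22 to 8.03 CPM at 6d (2.90, SE 0.59, adjusted p = 0.0283). Early levels of Chrne were 0.647, 1.94, 1.33 and 12.7 CPM, and without early mouse 4 Chrne was higher at 6d (3.30, SE 0.37, adjusted p = 0.0012).

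Of 19 collagens 12 were higher at 6d than early and none lower (14 higher and 1 lower without early mouse 4). Of 10 MHC class II genes 5 were higher and none lower with and without that mouse, and 9 of 33 matricellular genes were higher (17 higher and 2 lower without early mouse 4). Igf2 was at 20.6 to 33.4 CPM in the early mice (4.08, SE 0.33, adjusted p = 0.00185). Macrophage genes moved within the list, with 7 of 27 higher and 1 lower (8 and 2 without early mouse 4). Cx3cr1 was at 6.00 to 9.38 CPM early (2.55, SE 0.29, adjusted p = 0.00497) and Ms4a7 at 6.79 to 15.5 CPM (2.28, SE 0.39, adjusted p = 0.0165), whereas Ccr2 was at 34.4 to 60.0 CPM (-0.27) and Mrc1 at 62.6 to 163 CPM (-0.77), close to or above the 6d values. Chemokines had 3 higher and 5 lower of 28, and 3 higher and 14 lower without early mouse 4. Ccl2 was at 33.9, 30.2, 54.4 and 5.18 CPM early (-2.79, adjusted p = 0.0823, and -3.14, SE 0.56, adjusted p = 0.00658, without early mouse 4), and Ccl7 gave -3.12 without that mouse. Timp1 was at 113, 181, 292 and 7.26 CPM early (-1.59, adjusted p = 0.0115, without early mouse 4). None of 82 respiratory chain genes (median 0.22) or 30 cell cycle genes (median -0.08) differed, and without early mouse 4 2 of the former were higher and 1 of the latter lower at 6d.

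Against the late group 757 DEGs were up (5.28% of 14344 genes) and 680 down (4.74%), and without late mouse 4 it was 1649 and 1090. Cell cycle genes were higher at 6d for 20 of 30 (24 without late mouse 4), as in Mki67 at 10.7, 9.78, 10.6 and 36.7 CPM late (2.12, SE 0.50, adjusted p = 0.0245). Respiratory chain genes were lower at 6d for 27 of 82 and higher for 1 (36 and 1 without late mouse 4). Atp5e was at 384, 326, 398 and 249 CPM late (-1.91, SE 0.23, adjusted p = 0.00763). For comparison, respiratory chain genes had a median of -1.09 in the early group and -0.06 in the late group against vehicle, comparisons in which 0.946% and 0.466% of all genes were up and 0.821% and 0.339% down-regulated. Fatty acid oxidation, branched-chain and Schwann cell myelin genes were lower at 6d than late for 8 of 26, 7 of 21 and 8 of 14, and for 9, 10 and 10 without late mouse 4, when 1 myelin gene was higher. The counts of the immune and repair lists rested on late mouse 4. The macrophage list had 7 of 27 genes higher at 6d with late mouse 4 and 25 without it, the matricellular list 3 and 26 of 33, the collagens 2 and 14 of 19, the chemokines 2 and 14 of 23, and the developmental contractile genes 4 and 13 of 15. That mouse lay near the 6d values in many of these genes. Myh3 was at 8.51, 16.9, 16.1 and 161 CPM late (3.80, SE 1.02, adjusted p = 0.0335), Tnc at 42.6, 59.6, 59.1 and 825 CPM, and Cx3cr1 at 2.12, 1.04, 2.15 and 19 CPM. Myog, Chrng and Chrna1 were higher at 6d with and without late mouse 4 (2.78, 4.97 and 3.32 with it and 4.01, 7.75 and 4.11 without it on the log2 scale). Per1 was lower at 6d than early (-2.11, SE 0.41) and late (-1.73, SE 0.25), while Dbp was at 1.2 to 8.0 CPM early and 6.06 to 10.2 CPM late, below the 6d values.

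**Figure D5:**
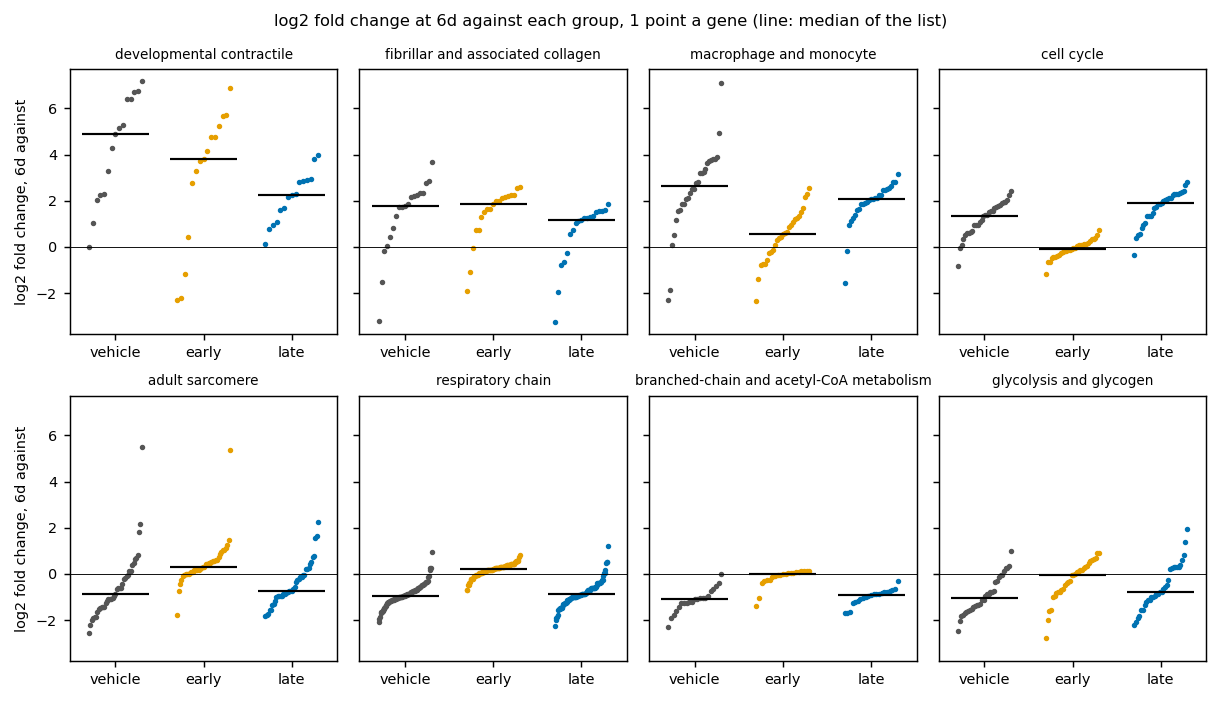
Log2 fold change of each tested gene of 8 lists at 6d post-Col against vehicle, against the early group and against the late group, all mice included; each point is 1 gene, and the line is the list's median. Developmental contractile genes have medians of 4.88, 3.81 and 2.26, and respiratory chain genes medians of -0.94, 0.22 and -0.89.

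The study's text names 69 genes of inflammation, lipid and amino acid metabolism for 6d, and all were tested here. Among them 42 rose and 17 fell, shares that are not independent evidence since the genes were chosen on these libraries.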

How the data were processed

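Whole MM was dissected, and stranded (dUTP) TruSeq mRNA libraries were sequenced as 50-base single-end reads. The authors deposited 1 table of read counts per library, a count of reads on each gene. The submitters' processing notes name bcl2fastq, TopHat2, the genome build mm9 and HTSeq, and versions are not given in the sources used here. The 5 closing lines of each table (reads without a gene, ambiguous reads and the like) were kept out of library sizes and tests. Groups came from the sample labels. None of the 465 pairs of libraries had identical counts, and no pair correlated above 0.9952 (log2 CPM).

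A gene entered a test when 3 or more of the compared libraries held 10 or more of its reads. Tests were run on the counts with edgeR 4.0.16 in R 4.3.3 (TMM scaling, quasi-likelihood F test, 2-sided, Benjamini-Hochberg adjustment over all genes tested). Each comparison was fitted on its own groups. CPM values were scaled by TMM over all 31 libraries, and RPKM used exon lengths from GENCODE vM1 (mm9), which matched 21627 of 22609 genes by symbol and 52 by synonym. The 930 genes without a model were given the median exon length of 2838 bases. Coordinates of genes are those of that annotation. Fold changes against a group with at most 3 counts in each library were computed against a floor of 3 counts per library, which covers counting error only. Values in parentheses after a gene are log2 fold changes at 6d against vehicle unless another group is named. Genes followed the markers of another tissue where their log2 CPM correlated at over 0.8 with the marker mean over 25 libraries. These were all libraries outside the comparison of 6d with vehicle, so they include the early and late mice. The test for 6d against vehicle was checked on counts simulated for 13649 genes with the spread of the vehicle mice. Of these genes 200 were given a log2 change of 2 up or down. The test recovered 167 of the 200 with 8 wrong calls among 175. The 200 were drawn from genes well expressed in vehicle MM, so the check does not cover genes low or near absent there.

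The groups compared, the gene lists and the tests were chosen with earlier results of these data known. Genes were named by rule: the 5 largest DEGs in each direction of each 6d comparison without overlap between groups and outside the salivary gland list and the genes set apart, the lead genes of each list and its 2 largest DEGs in each direction, the 5 best expressed genes set apart on each side, and the genes the study's text names for 6d. Of 298 genes so named 286 were tested, and in 23 of them over 5% of the 50-base windows of the exons occur in another gene, so that their counts are uncertain. Further list members that complete or illustrate a count (such as Actc1, Chrnd, Apoe, Vcan, Tnni2 and Junb) were named after their values were seen. A few list members are not reported here by name. Promoter sequences were taken from RefSeq (GRCm38.p6) by symbol. Alternatives were DESeq2 1.42.0, its size factors, library totals, no count filter, no RPKM threshold, a replicate block, a fit on all 31 libraries, both vehicle groups pooled, removal of the genes set apart, and leaving out each mouse. Leaving out genes with opposite-strand overlap and genes that follow other tissues was added after seeing the data.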

Additional observations from a re-analysis of the deposited data

Results flagged for a closer look

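Among the late mice, late mouse 4 stood apart in bone markers, with a mean log2 CPM of 4.30 against 2.33 to 2.48 in the others, and among the early mice, early mouse 4 had 27573542 reads on genes against 15759560 to 16753167. The gap to the nearest mouse was large for the range of the group in both cases, which chance gives in about 1 in 20 groups. That rate holds for 1 measure in 1 group, and more than 1 measure and group were looked at.

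Mice at 6d differed from the early and late mice by a direct test between these groups. There were 439 DEGs up and 342 down at 6d against early, and 757 up and 680 down against late. Of those down against early, 123 follow salivary gland markers and 162 follow salivary gland, bone or red blood cell markers, and 176 were down without such genes. The early mice were among the libraries on which these genes were chosen, so the 3 counts are not independent of this comparison. Against early, the largest log2 fold changes upward were those of Gzmd (9.61), Gzme (7.14), Myh3 (6.90), 1110059M19Rik (6.80) and Agtr2 (6.37). The largest downward, Smr3a (-15.16), Bpifa2e (-14.35), 2310057J18Rik (-13.97), Abpb (-13.70) and Gm4736 (-13.23), were all high in early mice 1, 2 and 4 and low in early mouse 3, as in Abpb at 1102, 1019, 0.267 and 1045 CPM. Against late, the largest upward were those of Ear5 (8.21), Orm2 (6.60), Gdf5 (5.35), Fgf21 (5.16) and Gdf15 (5.10). Ear5 had no count in any late mouse and 0.43, 3.01 and 1.58 CPM at 6d, so its fitted fold change depends on the prior count and is no bound. Gdf5, a growth factor of joints and tendons, was at 1.68, 13.5 and 18.0 CPM at 6d, at 0.0612 to 0.634 CPM late and at 4.49 to 17.8 CPM early. The largest downward were Obp1a (-13.94), which was at 3679 CPM in late mouse 2 and at 2.07 to 6.36 CPM in the other late mice, Bglap (-8.41), 2310057J18Rik (-8.29), Bglap2 (-5.78) and Smr3a (-5.64). Bglap and Bglap2, which encode osteocalcin and share 74.7% and 88.2% of their windows, were highest in late mouse 4 at 52.6 and 28.1 CPM.

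Outside the counts on genes, ambiguous reads had a median of 0.658% of the uniquely aligned reads at 6d, above every library that did not receive 10U.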

How the results depend on the processing

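The counts of DEGs kept within 1.5 times in 62 of 102 alternative fits over the 3 comparisons. At 6d against vehicle, library totals gave 2818 up and 414 down. Leaving out 1 mouse gave 438 to 1614 up (lowest without 6d mouse 2, 578 without 6d mouse 1) and 301 to 1381 down (lowest without 6d mouse 2, 341 without 6d mouse 1, 672 without 6d mouse 3). Against the early group, leaving out 1 mouse gave 99 to 867 up (99 without 6d mouse 2, 167 without 6d mouse 1, 178 without early mouse 2, 232 without early mouse 1, highest without early mouse 4) and 24 to 674 down (24 without 6d mouse 2, 32 without 6d mouse 1, 83 without early mouse 2, 85 without 6d mouse 3, 140 without early mouse 1, highest without early mouse 4). DESeq2 gave 654 down, and 176 were down without the genes that follow other tissues, which were chosen in part on the early mice. Against the late group, library totals gave 370 down, and leaving out 1 mouse gave 70 to 1649 up and 62 to 1090 down, lowest without 6d mouse 2 and highest without late mouse 4, with 198 to 486 up and 219 to 500 down without any 1 of the other 5 mice. For all these the cause was not tested, except that leaving out a 6d mouse removes genes with counts at 6d only from the test.

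A fit with the replicate number as a block gave 702 DEGs up and 537 down at 6d against vehicle, 670 and 546 against early, and 1618 and 1113 against late, the latter 2 without the fourth mice, which have no 6d partner. Mice with the same number did not deviate together in a steady way (correlations from -0.226 to 0.043 for 6d and vehicle, -0.249 to 0.191 for 6d and early, -0.364 to 0.369 for 6d and late). The main fits therefore did not pair the mice by number, although so few mice cannot exclude such a pairing.

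List medians changed sign in 11 fits. With library totals the neuromuscular junction, dystrophin complex and endothelium lists had medians of 0.29, 0.22 and 0.18. The atrophy and stress list had -0.08 with both vehicle groups pooled and -0.08 (6d mouse 3) to 0.39 when 1 mouse was left out. Leaving out 1 mouse gave -0.03 (6d mouse 1 or 2) to 3.41 for the granzyme list, -0.14 (vehicle mouse 2) to 0.29 for the fibroblast list, -0.07 (vehicle mouse 3) to 0.21 for the proteasome list and -0.15 (6d mouse 1) to 2.30 for the brown fat list, and the salivary gland list had 0.83 without the genes that follow other tissues, which left 2 genes.

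Depth (10 counts correspond to 0.344 to 0.674 CPM on library totals over all libraries) limits cytokines and lymphocyte genes, many of which were below the filter. With 3 mice a group, most list counts rested on single mice.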
